A study of Mus musculus with 8 samples.

Results

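The Armcx genes are X-linked genes whose proteins carry armadillo repeats, and 5 of them, Armcx1, Armcx2, Armcx3, Armcx5 and Armcx6, were measured on bead arrays of mouse embryonic fibroblasts (MEFs) treated with 5-aza-dC. They were taken as all probes whose symbol in the probe annotation was one of these 5, which gave 7 probes of 25697 and 5 genes of 16590 on the array. All 7 probes were kept by the filter on low signal (2 or more of the 8 arrays with a detection p-value below 0.05, where this p-value is the fraction of negative control beads outshining the probe), and all 5 genes were among the 9502 tested. The 5 genes were picked with their difference between 5-aza-dC and control on these arrays already known, so that difference is described here and supports nothing.

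5-aza-dC (5-aza-2'-deoxycytidine) is a cytidine analogue that traps DNA methyltransferases once built into replicating DNA, and cells lose DNA methylation as they divide. The 5-aza-dC group was kept in the drug for 72 h, at 1 µM by the sample labels, whereas the methods of the study give a lower dose, and which of them holds for these arrays is not settled. The control group was kept in DMSO for 72 h. Both groups were Trp53-/- Dnmt1+/+ MEFs, so the controls also lacked p53, and the labels give their background strain as unknown. Each group had 2 biological replicates with 2 technical arrays each, so n = 2 per group throughout, and nothing in the labels says whether the replicates came from separate embryos or from separate cultures of 1 line, so the error covers only the spread between these samples.

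Armcx proteins are also called ALEX, for arm protein lost in epithelial cancers on the X chromosome. The family is found in placental mammals and is thought to have arisen from the autosomal gene Armc10 by retrotransposition, together with the Gprasp genes, which encode proteins that bind the tails of G-protein-coupled receptors. In mouse neurons Armcx3 lies on the outer mitochondrial membrane, where it binds the Miro and Trak adaptors that couple mitochondria to kinesin, and Armcx1 promotes mitochondrial transport during axon regeneration. The human Armcx1 gene is known as a target of the transcription factor CREB and of Wnt and beta-catenin signalling.

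Armcx1, Armcx6, Armcx3 and Armcx2 lie together within 91309 bases of the X chromosome and Armcx5 lies apart. In RefSeq coordinates of GRCm38.p6, Armcx1 spans chrX:134717913-134721917, Armcx6 spans chrX:134748455-134756666, Armcx3 spans chrX:134756552-134761457 and Armcx2 spans chrX:134804142-134809221. The spans of Armcx6 and Armcx3 overlap by 115 bases. Armcx5 spans chrX:135742692-135747328 and starts at the same base as Gprasp1, which spans chrX:135742692-135803468. Where each probe lies within these genes was not examined here, so it is not known which exons the probes read or whether the Armcx5 and Gprasp1 probes share a transcript.

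The windows around the start sites, of 250 bases before and 50 bases after, are shown because 2 members that lie side by side, Armcx1 and Armcx6, carry the same pair of short motifs there. The RefSeq table of GRCm38.p6 gave a window for 4 of the 5 members, Armcx1 (chrX:134717688-134717987, plus strand), Armcx6 (chrX:134751370-134751669, minus strand), Armcx2 (chrX:134809172-134809471, minus strand) and Armcx5 (chrX:135742442-135742741, plus strand), and gave none for Armcx3. Capitals mark CACGTG, the palindromic E-box, and TGACG (or CGTCA on the other strand), the core of the cAMP response element.
Armcx1: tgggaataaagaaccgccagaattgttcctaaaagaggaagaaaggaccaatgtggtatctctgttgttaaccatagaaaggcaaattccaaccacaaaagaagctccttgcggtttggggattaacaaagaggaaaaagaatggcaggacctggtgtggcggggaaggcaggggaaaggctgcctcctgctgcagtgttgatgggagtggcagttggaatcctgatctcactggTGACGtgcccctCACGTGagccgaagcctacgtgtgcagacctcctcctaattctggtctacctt
Armcx6: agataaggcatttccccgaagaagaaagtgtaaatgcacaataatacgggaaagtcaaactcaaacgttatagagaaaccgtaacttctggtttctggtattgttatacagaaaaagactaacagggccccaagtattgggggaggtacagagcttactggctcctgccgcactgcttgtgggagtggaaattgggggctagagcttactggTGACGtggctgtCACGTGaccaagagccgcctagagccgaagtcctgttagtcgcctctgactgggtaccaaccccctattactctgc
Armcx2: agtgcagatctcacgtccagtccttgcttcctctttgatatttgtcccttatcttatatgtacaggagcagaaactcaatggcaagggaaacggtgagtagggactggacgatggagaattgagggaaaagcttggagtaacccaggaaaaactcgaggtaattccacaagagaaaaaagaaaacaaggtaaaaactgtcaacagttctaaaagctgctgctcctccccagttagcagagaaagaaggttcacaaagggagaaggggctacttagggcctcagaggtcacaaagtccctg
Armcx5: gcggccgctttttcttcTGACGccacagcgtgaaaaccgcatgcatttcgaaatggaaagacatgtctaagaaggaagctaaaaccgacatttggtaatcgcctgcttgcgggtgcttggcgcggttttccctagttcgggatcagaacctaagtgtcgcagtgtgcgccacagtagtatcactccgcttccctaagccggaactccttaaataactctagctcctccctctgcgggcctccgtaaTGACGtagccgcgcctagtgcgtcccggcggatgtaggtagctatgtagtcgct
The window of Armcx5 is also that of Gprasp1.

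Armcx1 and Armcx6 each had 1 CACGTG and 1 TGACG in the window, while Armcx2 had neither and Armcx5 had 2 TGACG and no CACGTG. Over all 32817 windows of the table, read on both strands, CACGTG was present in 7.15% and TGACG in 20.8%. In Armcx1 and Armcx6 the motifs stood in the same order and 7 bases apart, as TGACGNNNNNNNCACGTG, where N is any base. This spacing was put to the table after the sequences of the members had been seen, so no test goes with it. It was present in 18 of the 32817 windows (0.0548%), and 10 of those 18 belonged to Armcx1, Armcx6 and the Bex and Tceal genes of the same X region. The 12-base run ACTGGTGACGTG, which contains the TGACG, was found in 2 windows only, those of Armcx1 and Armcx6. The complete response element TGACGTCA, present in 1.79% of windows, was found in none of the members. CpG dinucleotides numbered 7 in the Armcx1 window, 10 in Armcx6, 4 in Armcx2 and 25 in Armcx5, against a median of 7 over all windows. A match is a run of letters and does not show that a factor binds there.

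Armcx3, the mitochondrial adaptor partner (probe ILMN_1234742), had normalised log2 levels of 8.04 and 7.89 on the arrays of 5-aza-dC replicate 1 and of 7.91 and 7.86 on those of replicate 2. The control arrays gave 8.98 and 9.08 for replicate 1 and 8.96 and 8.99 for replicate 2. The groups did not overlap, and the highest 5-aza-dC array was 0.93 log2 units below the lowest control array. The log2 fold change of Armcx3 (5-aza-dC minus control) was -1.08 ± 0.10 (SE, n = 2 per group), a level 2.11-fold lower in 5-aza-dC MEFs.

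Armcx1, which moves mitochondria in neurons (probe ILMN_2645448), had the largest difference of the 5 members. Its log2 levels were 7.72 and 7.76 in 5-aza-dC replicate 1 and 7.49 and 7.59 in 5-aza-dC replicate 2. In control they were 9.46 and 9.39 in replicate 1 and 9.37 and 9.54 in replicate 2. The gap between the highest 5-aza-dC array and the lowest control array was 1.62 log2 units, which was larger than any difference among arrays of 1 group. Before any correction, the bead signals of the same probe were 217, 247, 201 and 233 on the 5-aza-dC arrays and 785, 752, 639 and 787 on the control arrays. The log2 fold change was -1.80 ± 0.12 (SE, n = 2 per group), or 3.48-fold lower, so that 28.7% of the control level remained. Among the 9502 genes tested Armcx1 stood 174th from the lowest log2 fold change.

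Armcx2, a family member that lies at the far end of the same cluster (probe ILMN_1220398), had log2 levels of 10.67 and 10.67 in 5-aza-dC replicate 1 and of 10.46 and 10.54 in 5-aza-dC replicate 2. The control levels of Armcx2 were 11.89 and 11.89 in replicate 1 and 12.02 and 12.01 in replicate 2. Again every 5-aza-dC array lay below every control array, by at least 1.21 log2 units. The log2 fold change of Armcx2 was -1.36 ± 0.14 (SE, n = 2 per group), a 2.58-fold lower level. The replicates within each group differed by less than this, with an SD of 0.12 in 5-aza-dC and of 0.09 in control.

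Armcx6, which lies between Armcx1 and Armcx3, was read by 3 probes, all near the background in 5-aza-dC MEFs. With the brightest (ILMN_1228827), the log2 levels were 4.79, 5.13, 5.11 and 4.79 on the 5-aza-dC arrays and 6.28, 6.39, 6.25 and 6.38 on the control arrays. This probe was detected on 3 of the 4 5-aza-dC arrays and on 4 of the 4 control arrays. Its uncorrected bead signals were 54.9, 65.9, 65.8 and 61.9 on the 5-aza-dC arrays, against 112, 120, 100.2 and 116 on the control arrays. The fitted log2 fold change of Armcx6 was -1.37 ± 0.09 (SE, n = 2 per group), or 2.58-fold lower.

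The other Armcx6 probes gave smaller differences. Probe ILMN_3012253 was detected on 2 of 4 5-aza-dC arrays and 4 of 4 control arrays, with a log2 fold change of -1.02, and probe ILMN_3082808 on 1 of 4 and 4 of 4, with -1.19. In each of the 3 probes all 5-aza-dC arrays lay below all control arrays. The size of the Armcx6 difference depended on how the background was treated, and it was -0.81 with a larger offset of 50 and -0.80 in the values the authors normalised and deposited.

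Armcx5, the member that lies apart from the cluster and shares its start with Gprasp1 (probe ILMN_3001013), had the smallest difference. Its log2 levels were 6.81 and 6.98 in 5-aza-dC replicate 1 and 6.83 and 6.70 in 5-aza-dC replicate 2. The control levels were 7.34 and 7.31 in replicate 1 and 7.44 and 7.45 in replicate 2. The arrays of the groups were separated by 0.33 log2 units, about the size of the spread among the 5-aza-dC arrays, which reached 0.29. The log2 fold change of Armcx5 was -0.56 ± 0.11 (SE, n = 2 per group), or 1.47-fold lower, and Armcx5 stood 1844th of the 9502 genes from the lowest. Without control replicate 2 it was -0.49 and no longer passed the threshold (limma adjusted p = 0.08207).

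**Figure D1:**
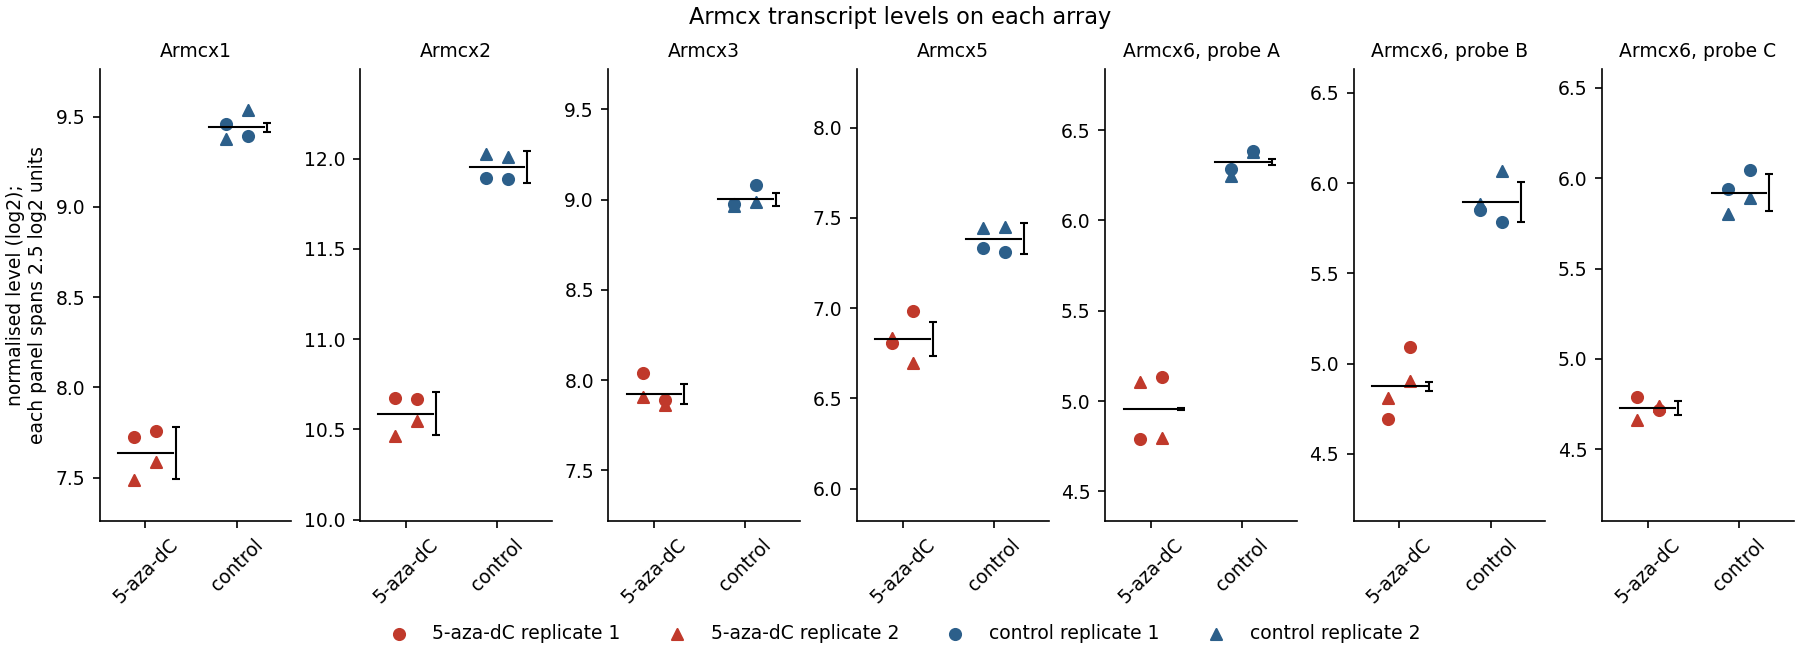
Normalised log2 level of each Armcx probe on the 4 5-aza-dC arrays and the 4 control arrays, with circles for replicate 1 and triangles for replicate 2, the group mean as a line and the SD of the 2 replicate means as a bar (Armcx6 probe A is ILMN_1228827, B is ILMN_3012253 and C is ILMN_3082808). In each of the 7 panels all 5-aza-dC arrays lie below all control arrays, with the widest gap (1.62) for Armcx1 and the narrowest (0.33) for Armcx5.

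Across the family, 5 of 5 members were called lower in 5-aza-dC (limma, Benjamini-Hochberg adjusted p under 0.05 over all genes tested). The treatment moved much of the transcriptome, and 25.7% of all genes tested were called lower, 26.3% higher and 52.0% in either direction. With median scaling in place of quantile normalisation 2817 genes were called lower and 2159 higher, against 2444 and 2497. Of the 5 members 4, all but Armcx5, were lower by more than 2-fold, a class that held 7.98% of all genes. With an offset of 50 or with the deposited values only Armcx1 and Armcx2 were, since Armcx3 then had -0.98 or -0.97 and Armcx6 -0.81 or -0.80. All 7 probes had their 5-aza-dC arrays below their control arrays, as had 30.0% of the probes kept and 31.4% of the genes. Since the members were chosen on this contrast, nothing is read from these counts. The median log2 fold change of the members was -1.36, and that of all genes tested was -0.02.

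The members also differed between replicates of 1 group. In 5-aza-dC, replicate 2 was lower than replicate 1 in 5 of 5 members, against 56.6% of all genes tested. In control, replicate 2 was lower in 2 of 5 members, against 46.9% of all genes. The widest such difference was that of Armcx1, whose SD between replicate means was 0.14 in 5-aza-dC and 0.02 in control.

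**Figure D2:**
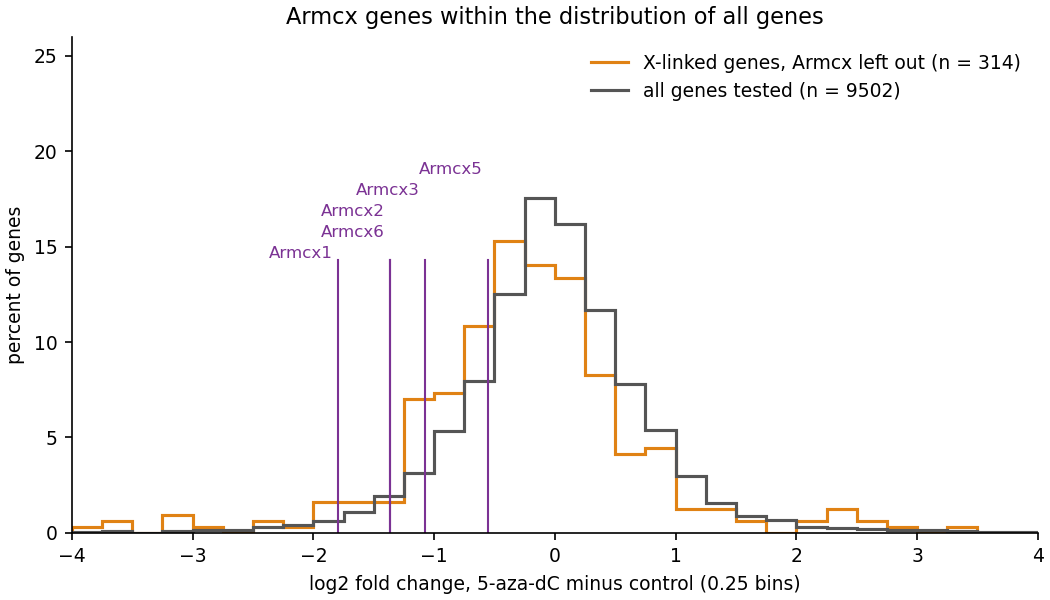
Distribution of the log2 fold change (5-aza-dC minus control, bins of 0.25) over 314 X-linked genes other than the Armcx genes and over all 9502 genes tested, as percent of genes, with the 5 Armcx genes as vertical lines. Armcx1, Armcx6, Armcx2 and Armcx3 lie between -1.80 and -1.08, in the lower tail of both distributions, and Armcx5 (-0.56) lies nearer the centre.

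The closest relatives of the Armcx genes were lower too. Of 5 relatives listed, 3 had probes (Armcx4 and Gprasp2 were not on the array), and 3 of these 3 fell, with a median log2 fold change of -0.91. By comparison, 25.7% of all genes tested were called lower. Gprasp1, which sorts G-protein-coupled receptors for degradation, had log2 levels of 7.74, 7.82, 7.64 and 7.54 on the 5-aza-dC arrays, against 8.65, 8.59, 8.65 and 8.69 on the control arrays. Its log2 level fell by 0.96 ± 0.11 (SE, n = 2 per group, limma adjusted p = 0.001212), and its second kept probe gave -0.74.

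Armc10, the autosomal gene from which the family is thought to derive, lies on chromosome 5 (chr5:21646006-21662699). Its log2 levels were 9.61, 9.63, 9.38 and 9.40 on the 5-aza-dC arrays and 10.44, 10.44, 10.41 and 10.36 on the control arrays. The groups did not overlap, and the log2 level of Armc10 fell by 0.91 ± 0.13 (SE, n = 2 per group, limma adjusted p = 0.00231). Bhlhb9, also known as Gprasp3, fell by 0.78 ± 0.14 (SE, n = 2 per group, limma adjusted p = 0.004842). The relatives were listed with earlier results of these arrays known, so their shared direction is not independent evidence.

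The Bex and Tceal genes are small gene families, X-linked apart from Bex6 on chromosome 16, most of which lie beyond Armcx5 and 1 of which, Tceal6, lies between Armcx2 and Armcx5. Of 12 listed, 11 had probes and 5 were kept. Of these 5, 0 were called higher, 3 lower and 2 were not called, with a median log2 fold change of -1.04. Of all genes tested, 26.3% were called higher and 25.7% lower. Tceal1, a protein related to the elongation factor TFIIS, had log2 levels of 5.80, 5.75, 6.11 and 6.19 on the 5-aza-dC arrays and 7.88, 7.91, 7.75 and 7.83 on the control arrays. It fell by 1.88 ± 0.15 (SE, n = 2 per group, limma adjusted p = 0.0003084), a difference as large as that of Armcx1. Tceal8 fell by 1.43 ± 0.13 (adjusted p = 0.0005466, same fit, n = 2 per group) and Tceal9 by 1.04 ± 0.17 (adjusted p = 0.004268).

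The Bex genes did not pass the test. Bex3, an adaptor of the p75 neurotrophin receptor, had a log2 fold change of -0.55 ± 0.22 (SE, n = 2 per group, limma adjusted p = 0.07969). Bex2 had -0.25 ± 0.15 with its brightest probe (adjusted p = 0.2024), while another of its 3 probes gave 1.40, so its probes disagree. Bex1, Bex4, Bex6, Tceal3, Tceal5 and Tceal6 had no probe that passed the detection filter, and Tceal7 had none on the array. With the mean of kept probes, 4 of the 5 kept genes of these families were called, 1 of them higher and 3 lower. Without 5-aza-dC replicate 2 the median log2 fold change of the 5 was -1.24.

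**Figure D3:**
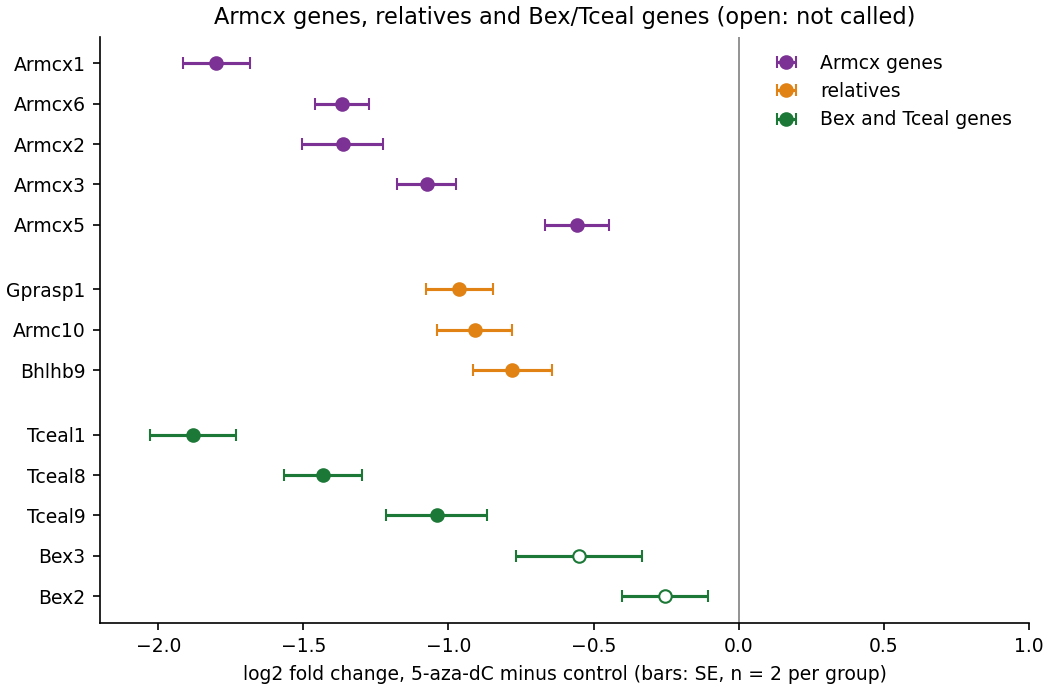
Log2 fold change (5-aza-dC minus control) with its SE, n = 2 per group, for the 5 Armcx genes, the 3 relatives measured and the 5 Bex and Tceal genes kept; filled points passed the limma test and open points did not. All 13 values, each from the brightest kept probe, lie below 0, the open ones being Bex3 and Bex2. Another kept probe of Bex2, not drawn, gave 1.40.

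Stretches with the motif pair are shown for genes of these families, to set the letters of Armcx1 and Armcx6 beside those of their neighbours. Armcx1 (chrX:134717919-134717944, plus strand), Armcx6 (chrX:134751436-134751461, minus strand) and Tceal8 (chrX:136172225-136172250, minus strand) have 7 bases between the motifs. Tceal1 (chrX:136707963-136707990, plus strand) and Bex3 (chrX:136270262-136270289, plus strand) have 9, as has Armcx4 (chrX:134686498-134686525, plus strand). Capitals mark TGACG and CACGTG as above.
Armcx1: ctggTGACGtgcccctCACGTGagcc
Armcx6: ctggTGACGtggctgtCACGTGacca
Tceal8: ttgaTGACGcgatcctCACGTGacca
Tceal1: gctgTGACGcgctcccctCACGTGacca
Bex3: gcagTGACGcagggccctCACGTGaccc
Armcx4: gcgaTGACGcggagccccCACGTGaccc
Counted from the start site of each window, the TGACG began 15 bases upstream in Armcx1, 38 in Armcx6, 15 in Tceal1 and 17 in Armcx4. On the same count it stood at -5 in Tceal8 and -13 in Bex3, that is, downstream of the start. For Armcx1 and Armcx6 that start site lies inside the gene span given above and is not its outermost base.

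The spacing of 7 bases was held by windows of 16 genes, 8 of them in the Armcx, Bex and Tceal families and on X, and 8 elsewhere in the genome. Of the 8 family genes 3 were tested and 3 were called lower (Armcx1, Armcx6 and Tceal8), but Armcx1 and Armcx6 were chosen on this contrast and 25.7% of all genes were called lower, so nothing is read from this count. Of the 8 others 5 were tested, of which 1 was called lower (Vps33a, log2 fold change -0.78, limma adjusted p = 0.002302), 1 higher (E2f3, 1.59, adjusted p = 0.0001473) and 3 were not called (Ilk, Marchf8 and Ubap2). The spacing of 9 bases was held by 6 windows, 3 of them of Armcx4, Bex3 and Tceal1.

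Along the X chromosome, the genes around the Armcx genes went in both directions. Of 33 other protein-coding genes between the outermost members and up to 10 beyond each end, 25 had probes and 14 were tested. Of these, 4 rose, 7 fell and 3 were not called, with a median log2 fold change of -0.63. Among all genes tested 26.3% were called higher and 25.7% lower. The 14 include Gprasp1, Bhlhb9, Tceal8 and Bex2, which were also counted above among the relatives or the Bex and Tceal genes. Arxes2, a gene of adipocyte differentiation, fell by 2.28 ± 0.10 (SE, n = 2 per group, limma adjusted p = 5.726e-05). Drp2, a dystrophin relative, was not detected on any 5-aza-dC array and fell on the measured scale by 1.01 (limma adjusted p = 0.0004989), or by at least 0.84 log2 units against the detection limit.

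Other genes of the block rose. Taf7l, a germ-cell subunit of the TFIID complex, was not detected on any control array and was at least 4.74 log2 units higher in 5-aza-dC (limma adjusted p = 2.241e-05). Timm8a1, a mitochondrial import chaperone, rose by 1.09 ± 0.12 (SE, n = 2 per group, limma adjusted p = 0.001085) and Cenpi, a centromere protein, by 0.95 ± 0.15 (adjusted p = 0.003056). Nxf2, an mRNA export factor of the germ line and the gene next to Armcx2, was undetected in control and at least 0.41 log2 units higher (adjusted p = 0.003554). Hnrnph2, the measured gene nearest to Armcx1 on the side of Armcx4, had a log2 fold change of -0.07 ± 0.12 (SE, n = 2 per group, limma adjusted p = 0.6751).

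**Figure D4:**
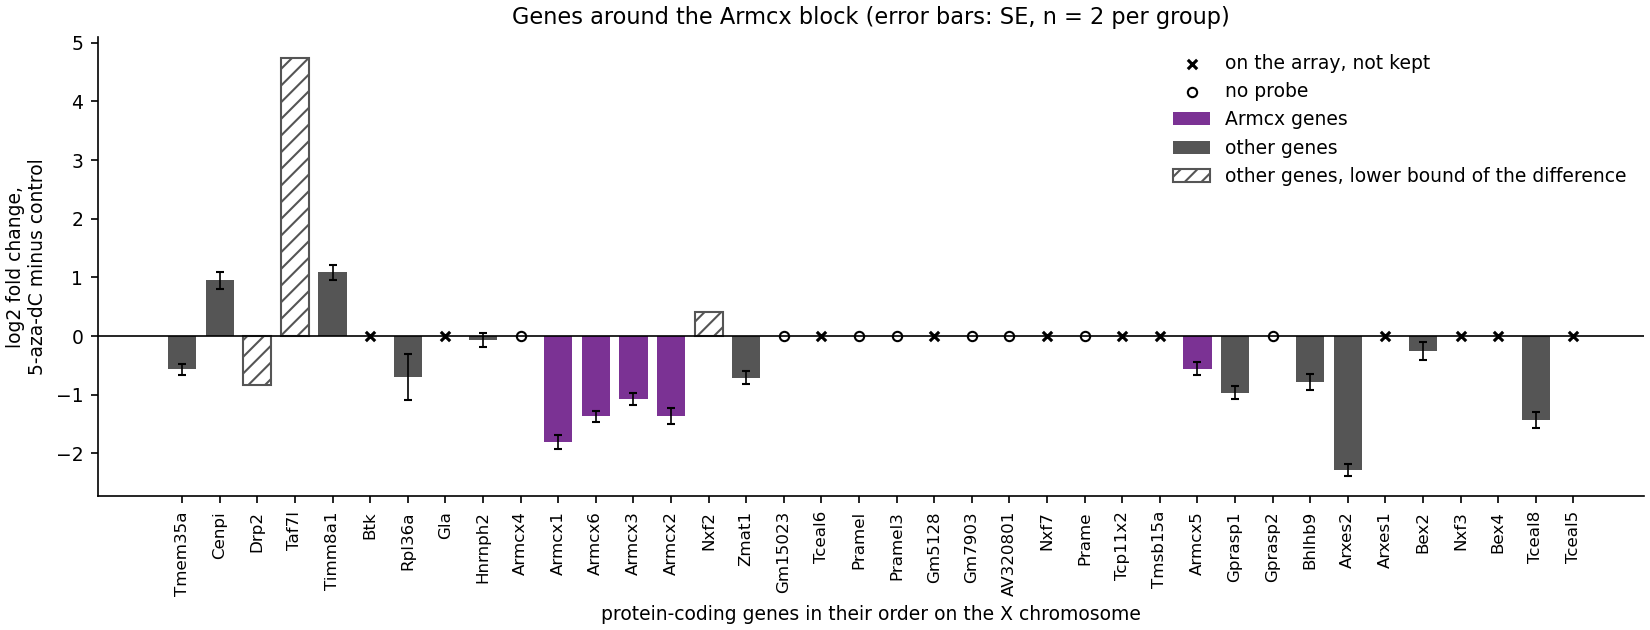
Log2 fold change (5-aza-dC minus control) with its SE for protein-coding genes in their order on the X chromosome, Armcx genes in purple; hatched bars are lower bounds for genes undetected in 1 group, crosses are genes on the array that were not kept and circles are genes with no probe. The Armcx bars run from -1.80 (Armcx1) to -0.56 (Armcx5), between neighbours that rose, such as Timm8a1 (1.09), and neighbours that fell, such as Arxes2 (-2.28).

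Over the whole X chromosome, 314 genes other than the members were tested, of which 65 rose, 125 fell and 124 were not called. The share that fell was 39.8%, against 25.7% of all genes tested, and the median log2 fold change was -0.23, against -0.02. X-linked genes with larger differences went both ways, with Srpx2 at -4.43 and Lpar4 at -3.90 and with Rhox5, a homeobox gene of the germ line, at 4.76. Xist, the RNA that coats the inactive X chromosome, was undetected on all control arrays and was at least 3.32-fold higher in 5-aza-dC with its brightest probe (limma adjusted p = 0.0001741, n = 2 per group), while its second kept probe, also undetected in control, differed by 1.17 on the measured log2 scale. The Y-linked genes were detected on all arrays of both groups, and Kdm5d fell by 1.00, Eif2s3y by 0.59 and Uty by 0.33 on the log2 scale. The call of Eif2s3y was lost without control replicate 1 (-0.49), and that of Uty under 6 of the alternatives, leaving out control replicate 1 (-0.32), control replicate 2 (-0.34) or 5-aza-dC replicate 2 (-0.26) among them. The part of Xist and of the Y-linked genes in the levels of X-linked genes was not tested.

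Genes of mitochondrial transport and dynamics, among them the Miro and Trak partners of Armcx3, showed no common direction. Of 26 genes of mitochondrial transport and dynamics listed, 23 had probes, 18 were tested, 2 rose, 3 fell and 13 were not called, with a median log2 fold change of -0.04. The shares of all genes tested were 26.3% called higher and 25.7% called lower. The Miro genes had log2 fold changes of 0.03 ± 0.14 (Rhot1, limma adjusted p = 0.8652) and 0.09 ± 0.11 (Rhot2, adjusted p = 0.5122). The Trak adaptors went in opposite directions: Trak1 fell by 0.78 ± 0.10 (SE, n = 2 per group, limma adjusted p = 0.001727) and Trak2 rose by 0.54 ± 0.12 (adjusted p = 0.01343). The 3 kept probes of Trak2 ranged from 0.13 to 0.54. The call of Trak2 was lost without control replicate 1 (0.43, limma adjusted p = 0.1492).

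The kinesin light chain gene Klc4 fell by 1.08 ± 0.12 (SE, n = 2 per group, limma adjusted p = 0.0009846) and the kinesin heavy chain gene Kif5c rose by 0.61 ± 0.10 (adjusted p = 0.003721). The fusion genes Mfn1 (-0.21, adjusted p = 0.1694) and Mfn2 (0.22, adjusted p = 0.2211) and the fission gene Dnm1l (-0.09, adjusted p = 0.5966) did not pass the limma test. The second kept probe of Dnm1l gave 0.39. Mff, the fission factor that recruits the product of Dnm1l, fell by 0.44 ± 0.11 (SE, n = 2 per group, adjusted p = 0.01588), a call lost with the replicate number as a block (adjusted p = 0.06967), with the mean of its kept probes (-0.28), without control replicate 1 (-0.40) and without control replicate 2 (-0.48). The count for this list was 9 without 5-aza-dC replicate 2 and 3 without control replicate 1.

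Genes for other armadillo repeat proteins, which share the fold, went in both directions. Of 38 listed, 35 had probes and 21 passed the filter, with 8 genes that rose, 4 that fell and 9 not called, with a median log2 fold change of 0.17. Again, 26.3% of all genes tested were called higher and 25.7% lower. The importin alpha genes Kpna1, Kpna2 and Kpna3, which carry cargo into the nucleus, rose by 1.38, 1.08 and 1.00 on the log2 scale (limma adjusted p = 0.0009005, 0.001973 and 0.001226). Armc9, a cilium protein, fell by 0.99 and Kifap3, the adaptor of a kinesin motor, fell by 0.80 (limma adjusted p = 0.0005213 and 0.00255). The Armc9 probe was near the background in 5-aza-dC MEFs, detected on 3 of the 4 arrays, and the second kept probe gave -0.66. The 3 kept probes of Kifap3 ranged from -0.80 to -0.58. Ctnnb1, which encodes beta-catenin, had -0.30 ± 0.18 (SE, n = 2 per group, limma adjusted p = 0.2073). With median scaling 6 genes of this list rose and 5 fell. Without control replicate 2 the count of called genes was 7, of which 5 rose and 2 fell.

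The genes outside the family whose pattern lay closest to the mean of the members were Taz, Nsdhl, Cdkn1b, Nedd4 and Yipf2. Likeness was taken as the root mean square difference between centred log2 profiles over the 4 replicate means, and it was 0.02 for Taz and Nsdhl and 0.03 for the others, against a median of 0.63 over all genes outside the family. Taz and Nsdhl are themselves on the X chromosome, with log2 fold changes of -1.22 and -1.24. With 2 groups of 2 replicates, this measure mostly picks genes with the same size of difference.

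Markers of cell type moved with the treatment. Of 11 fibroblast markers on the array 10 were detected in control MEFs and Fap was not detected on any array, and their summed linear level was 19458 to 23544 on the 5-aza-dC arrays and 34297 to 40866 on the control arrays. Of the 10 tested, 7 fell, with Col1a1 at -2.52 and Dcn at -2.80 among them, where 25.7% of all genes tested were called lower. Thy1 was the 1 that rose, by 0.42 (limma adjusted p = 0.04584), a call lost with median scaling (0.32) among other alternatives. Vim and S100a4 were not called, and both had positive log2 fold changes. Neural markers, of interest because Armcx genes are best known in neurons, were detected for 4 of 10 on the array, with Rbfox3, Snap25, Syt1, Nefl, Gfap and S100b undetected on every array. Their summed level was 499 to 525 on the 5-aza-dC arrays and 1003 to 1093 on the control arrays, and of the 4 tested Stmn2 (-1.35) and Map2 (-1.18) fell, Gap43 rose by 0.59 (limma adjusted p = 0.01945) and Tubb3, at 0.22, was not called. The second kept probe of Map2 gave -0.14, and without control replicate 2 the value of Gap43 was 0.49 and no longer called.

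Epithelial markers had summed levels of 1270 to 1312 on the 5-aza-dC arrays and 111 to 120 on the control arrays. Of the 5 tested, 4 rose and 1 was not called, where 26.3% of all genes tested were called higher. Krt8, undetected in control, was at least 27.8-fold higher. Krt18 and Grhl2, also undetected in control, were at least 7.39-fold and 6.77-fold higher. Cldn4 rose by 0.38 on the measured log2 scale, but its bound against the detection limit was -0.12. Cdh1, at 0.07, was not called, and Epcam had no probe. Of 3 blood markers on the array 1 was detected, and of 5 endothelial markers 0 were detected on any 5-aza-dC array and 1 on a control array. The part of these shifts in the Armcx levels was not tested, and in total RNA fewer cells of a type and less RNA per cell cannot be told apart. Dnmt1, the enzyme that 5-aza-dC traps, rose by 0.85 ± 0.11 (SE, n = 2 per group, limma adjusted p = 0.001732), which does not check the inhibition of its protein. Detected probes numbered 12841 to 13595 per array, and array profiles correlated at 0.9968 to 0.9977 between technical arrays, at 0.9874 to 0.9879 between 5-aza-dC replicates, at 0.9957 to 0.9958 between control replicates and at 0.919 to 0.9299 between groups.

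**Figure D5:**
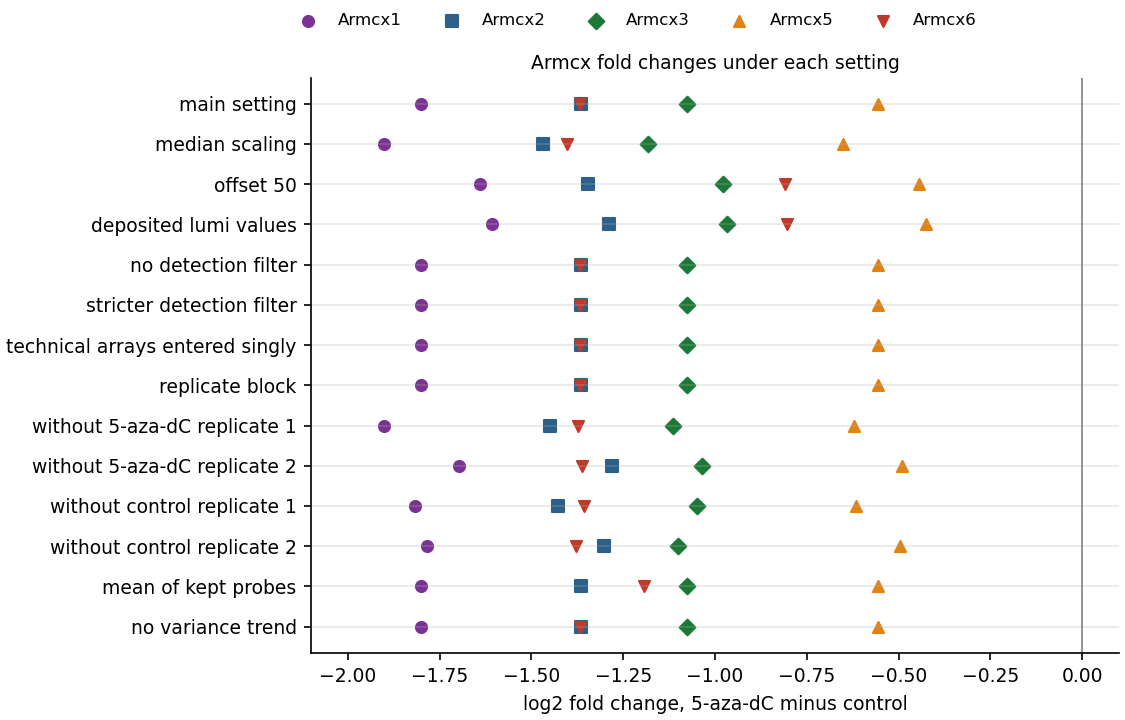
Log2 fold change (5-aza-dC minus control) of each Armcx gene under the main setting and 13 alternative settings of normalisation, filter, model and samples. Every point lies below 0, and the order of the members changes mainly through Armcx6, which moves between -1.40 and -0.80.

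Across these alternatives the log2 fold change ranged from -1.90 to -1.61 for Armcx1, from -1.47 to -1.28 for Armcx2, from -1.18 to -0.97 for Armcx3, from -0.65 to -0.42 for Armcx5 and from -1.40 to -0.80 for Armcx6. Of the 65 values, 0 changed sign and 1 lost its call, that of Armcx5 without control replicate 2.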

How the data were processed

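Total RNA of 4 5-aza-dC arrays and 4 control arrays (2 biological replicates per group with 2 technical arrays each) was measured on bead arrays. Per the file headers, the non-normalised table gives for every array the average intensity of the beads of a probe, not log-transformed, and its detection p-value. For the second table the authors ran lumi (version not given in the sources used here) and deposited linear intensity values. By the methods, this covered background subtraction, variance stabilisation and robust splines. For array 1 of 5-aza-dC replicate 1, however, the deposited values were the same as the uncorrected signals, so no background subtraction is visible there. The methods name a whole-genome array, and the probe table belongs to the RefSeq-content array of the same maker.

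Signals were corrected and quantile-normalised with neqc (offset 16, with background estimated through the detection p-values) in limma 3.58.1 under R 4.3.3 and log2-transformed. The detection filter kept 14308 of 25697 probes, and each of 9502 genes was read by its brightest kept probe. Probes were named through their annotation and RefSeq genes (GRCm38.p6), and 1719 probes were left unnamed. Technical arrays were averaged, the groups were compared with a limma fit with variance trend on 2 residual degrees of freedom, and p-values were adjusted by Benjamini-Hochberg over all 9502 genes. The median SE was 0.119 log2 units. The fit was tested on simulated data. Where a probe was undetected on all arrays of a group, a bound was set by the lowest signal among detected probes. Probe sequences were not examined, so cross-reaction between family members was not tested.

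The members and gene lists were chosen with earlier results of these data known. Named were all members and relatives, up to 4 called genes in each direction of every other list, a few transport and control genes whatever their values, and the 5 genes of most similar profile. Genes with the motif pair were named after their values were seen. Median scaling, an offset of 50, the deposited values, other detection filters, technical arrays entered singly, a replicate block, leaving out each replicate, the mean of all kept probes and no variance trend were tried. The number of arrays limits the precision.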

Additional observations from a re-analysis of the deposited data

How the results depend on the processing

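The 5 members kept their direction under all 13 alternatives, and 64 of 65 values kept their side of the threshold. The median log2 fold change of the members, -1.36, was -0.98 with an offset of 50, -0.97 with the deposited lumi values and -1.19 with the mean of kept probes, and it ranged from -1.37 to -1.28 when 1 replicate was left out. With 1 replicate left out, the members called numbered 4 to 5, the relatives 3 to 3, the Bex and Tceal genes 3 to 5, the X block neighbours 11 to 13, the other X-linked genes 135 to 208, the mitochondrial transport genes 3 to 9, the other armadillo genes 7 to 13 and all genes 3244 to 5906, against 4941. The lowest of these, 3244, was without control replicate 1. Of 792 further values for named genes outside the family 756 kept their call or lack of one, 32 lost a call, 4 gained one and 0 reversed one. A change of sign in a gene that was not called is not counted here.

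Replicates of both groups carry the numbers 1 and 2, and the labels do not say whether these numbers pair the samples. The deviations of same-numbered replicates correlated at -0.63 over genes. With 2 replicates per group the same value with its sign turned holds for the crossed numbers, so it cannot decide whether the samples were paired. With the replicate block, 4385 of 9502 genes were called (2177 higher, 2208 lower), 5 of 5 members, 3 relatives, 3 Bex and Tceal genes, 11 X block neighbours, 168 X-linked genes, 4 mitochondrial transport genes and 8 other armadillo genes, and the members' median stayed at -1.36. With the crossed pairing, chosen after seeing the data, 6171 genes were called (3043 higher, 3128 lower), with 5 of 5 members.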
